A study of Mus musculus with 12 samples.

Results

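The genes described here encode the proteins of the cytosolic ribosome. They were found by symbol in the platform's probe annotation: large-subunit symbols of the Rpl type, small-subunit symbols of the Rps type, the stalk genes Rplp0 to Rplp2, and Rpsa. Annotated pseudogene symbols and probe sets that carry several symbols were left out. The rule gave 66 genes, 42 of the large and 24 of the small subunit, of 22180 named genes on the array. They were read by 106 of the 23521 probe sets that carry 1 symbol, and each gene was represented by its brightest probe set. RefSeq lists 64 of the 66 as protein coding, Rpl6l as a pseudogene and Rps4l as a transcribed pseudogene. A further 13 symbols of the same form sat only on probe sets with several symbols and are not analysed here, among them Rpl10, Rpl12, Rpl36a and Rps2. A gene was tested when at least 2 of the 12 arrays lay above a log2 value of 3.45, the 30th percentile of named probe sets. By that rule 64 of the 66 genes were tested, and Rpl10l and Rpl32l were not.

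Mouse cells of 2 strains were profiled on Affymetrix whole-transcript arrays, 1 array per sample, and the series was designed to compare invariant natural killer T (iNKT) cells between the strains. The labels give 5 groups: ROR- cells of BALB/c mice (BALBC in the labels, 3 arrays), iNKT17 cells of BALB/c mice (3 arrays), ROR- cells of B6 mice (2 arrays), iNKT17 cells of B6 mice (2 arrays) and gamma-delta 17 cells of B6 mice (2 arrays). No treatment or genetic change is given for any group, and the labels give neither the age of the mice, the organ nor the antigen receptor of the ROR- cells. Nothing in them ties a replicate to its own mouse or culture, so the p-values speak of the spread among these arrays, part of which may be technical. Frozen tissue is named as the RNA source, while the labels name cells.

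Ribosomal proteins assemble with ribosomal RNA into a small subunit, which reads the messenger RNA, and a large subunit, which joins amino acids. Their messenger RNAs begin with a tract of pyrimidines, the 5′ terminal oligopyrimidine (TOP) motif, through which the mTOR pathway and the protein Larp1 control their translation together. The transcription factor MYC raises the transcription of ribosomal protein and ribosome assembly genes when lymphocytes grow. In T cells Rpl22 is known for its need in the development of alpha-beta but not gamma-delta T cells, and Rps6 is the classical substrate of the S6 kinases downstream of mTOR.

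The start sites of a few of the genes that the results below turn on are shown with the letters around them. Each line gives 30 bases before and 20 bases from the annotated start, 5′ to 3′ on the gene's own strand, from RefSeq (GRCm38.p6). Capitals mark a tract that begins with C within 2 bases of the start and runs on in C or T for at least 5 bases.
Rps6 (chr4:86857348-86857397, minus strand): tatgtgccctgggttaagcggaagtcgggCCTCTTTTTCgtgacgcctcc
Rplp2 (chr7:141447621-141447670, plus strand): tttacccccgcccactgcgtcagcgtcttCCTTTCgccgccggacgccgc
Rps27 (chr3:90213629-90213678, minus strand): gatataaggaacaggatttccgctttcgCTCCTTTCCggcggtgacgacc
Rps27l (chr9:66946056-66946105, plus strand): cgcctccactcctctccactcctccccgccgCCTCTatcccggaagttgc
Rps9 (chr7:3704011-3704060, plus strand): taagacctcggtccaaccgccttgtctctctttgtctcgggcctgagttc
Rps19 (chr7:24884562-24884611, plus strand): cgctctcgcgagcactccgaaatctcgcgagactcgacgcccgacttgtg
The tract was 10 bases long in Rps6, 6 in Rplp2, 9 in Rps27 and 5 in Rps27l, while Rps9 and Rps19 did not meet that rule. In Rps9 the annotated start nevertheless lay inside an unbroken run of 9 pyrimidines, of which 4 are counted from the first C within 2 bases of the start. The longest run touching the 3 starts listed for Rps19 was 3 bases. RefSeq windows of 300 bases were at hand for 60 annotated starts of 51 of the genes. Such a tract stood at 17 of those 60 starts (28.3%) and at 9.0% of all 32851 promoter windows. With any run of at least 5 pyrimidines that touches the bases within 2 of the start, as in Rps9, the counts were 23 of 60 (38.3%) and 22.2%. A CCGGAAG motif on either strand, the core that ETS factors bind, lay in 22 of the 60 windows (36.7%) and in 8.9% of all. AAGATGG, the core of the YY1 motif, lay in 11.7% against 6.3%, and TATAAA in 6 of the 60 against 13.6%. In the 16047 windows of tested genes the ETS core lay in 13.8%, the YY1 core in 6.5% and TATAAA in 9.1%. Against these the ETS excess was smaller, and TATAAA was about as frequent in the 60 windows as in tested genes. The 2 tract rules gave 9.3% and 22.3% there, close to the shares of all windows. The ETS and YY1 motifs can overlap in their letters AAG, and a window with both was counted for each. The counts describe letters only. An annotated start can lie some bases from the start a cell uses.

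Facts of the arrays bear on the results as follows. The median of all named genes lay between 4.34 and 4.50 on the 12 arrays. The type 17 markers Il23r, Il1r1, Il22, Blk, Ccr6, Il17re, Sdc1 and Il17a were all higher in iNKT17 than in ROR- cells (8 of 9 tested), although BALB/c ROR- replicate 2 read 7.003 for Il23r where the other ROR- arrays read 2.93 to 3.67. The mean over the type 17 markers, Il23r included, was 5.78 on that array. It was 4.12 to 4.51 on the other ROR- arrays and 7.55 to 8.02 on the iNKT17 arrays. B6 gamma-delta 17 replicate 1 stood apart in markers of other cells: the mean over its myeloid markers was 5.24 against 3.58 to 3.75 on the other 11 arrays, with S100a8 at 9.30 against 2.29 on the second gamma-delta 17 array, and Cd8a at 8.76 against 5.47. Over both strains, 6 of 10 markers of natural killer and CD8 cells read lower in iNKT17 than in ROR- cells (adjusted p below 0.05 in limma). So did 4 of 7 markers of immature thymocytes, while no myeloid, stromal or erythroid marker passed. Of all genes 12.3% passed either way in that comparison. Klra9 and Klri2, among the 6, passed in B6 but not in BALB/c alone, where ROR- cells read 2.94 and 3.39 on average. List means of B cell and erythroid markers were 3.55 to 4.13 and 3.82 to 4.19, and of the 4 B cell markers tested Cd79b was higher in iNKT17 cells (1.76) and Cd79a lower (-0.43), with 2 positive and 2 negative differences in all. The mean over 29 cell cycle genes ranged from 5.52 to 8.95 between arrays. The part of these differences in the results was not tested. In samples of many cells, fewer cells of a type and less RNA per cell cannot be told apart.

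Probe sets of the ribosomal protein genes were among the brightest of the array. Mean readings over 12 arrays ran from 2.28 for Rpl10l to 12.79 for Rplp1, and 38 of the 66 lay above 8, a reading that 9.17% of named genes passed. The highest readings after Rplp1 were those of Rpl41 (12.52), Rpl13 (12.31), Rpl19 (12.29) and Rpl28 (12.28), and the lowest after Rpl10l those of Rpl32l (2.54), Rpl3l (3.41), Rps15 (3.61) and Rps16 (4.45). These are readings of probe sets and not transcript abundances. Of 24 genes with more than 1 probe set, the probe sets of the same gene differed by a median of 4.59 on the log2 scale, and by 8.40 in Rpl35. Several probe sets held the same values on all arrays, 6 of Rps12, 2 of Rpl23a and 2 of Rps19. Ribosomal protein genes have many near-identical processed copies in the genome, so that a probe set can also read a copy. The range of a gene over the 12 arrays had a median of 0.46 and was under 1 in 50 of the 64 tested genes, against a median of 0.71 over all genes tested, 74.9% of which lay under 1. The narrow ranges were those of the bright probe sets. The median was 0.37 in genes read above 8 and 0.92 in those at or below 8, against 0.73 and 0.71 in other genes of the same brightness. Whether the scale compresses differences at the highest readings was not tested. The widest ranges were those of Rps27 (2.23) and Rplp0 (2.02).

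By group means over the 64 tested genes, ribosomal protein genes read highest in B6 ROR- cells and lowest in the B6 type 17 cells. The mean over the 64 tested genes was 9.04, 8.995 and 8.91 on the BALB/c ROR- arrays and 8.95, 8.92 and 8.89 on the BALB/c iNKT17 arrays. It was 9.06 and 9.15 on the B6 ROR- arrays, 8.84 and 8.92 on the B6 iNKT17 arrays, and 8.84 and 8.89 on the gamma-delta 17 arrays. Both B6 ROR- arrays lay above all 4 B6 type 17 arrays, while in BALB/c the third ROR- array fell among the iNKT17 arrays. The group means were 8.98 ± 0.07 (SD, n = 3), 8.92 ± 0.03 (n = 3), 9.11 ± 0.06 (n = 2), 8.88 ± 0.05 (n = 2) and 8.86 ± 0.03 (n = 2) in the same order of groups. The ROR- cells of the 2 strains lay close. Over the 38 genes with readings above 8, BALB/c ROR- replicate 1 was the highest array, at 11.394 against 11.367 and 11.387 in B6 ROR- cells. With repeated quantile normalization the median strain difference in ROR- cells was -0.000326, with 32 of 64 negative. Counted gene by gene, 52 and 54 of the 64 genes lay above their own 12-array mean on the B6 ROR- arrays, and 14, 19, 19 and 15 on the B6 type 17 arrays. On the BALB/c arrays the counts were 51, 42 and 31 in ROR- and 34, 23 and 31 in iNKT17 cells. The same share over all genes tested was not computed. No p-value is given for these sums, which follow from the choice of genes.

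**Figure D1:**
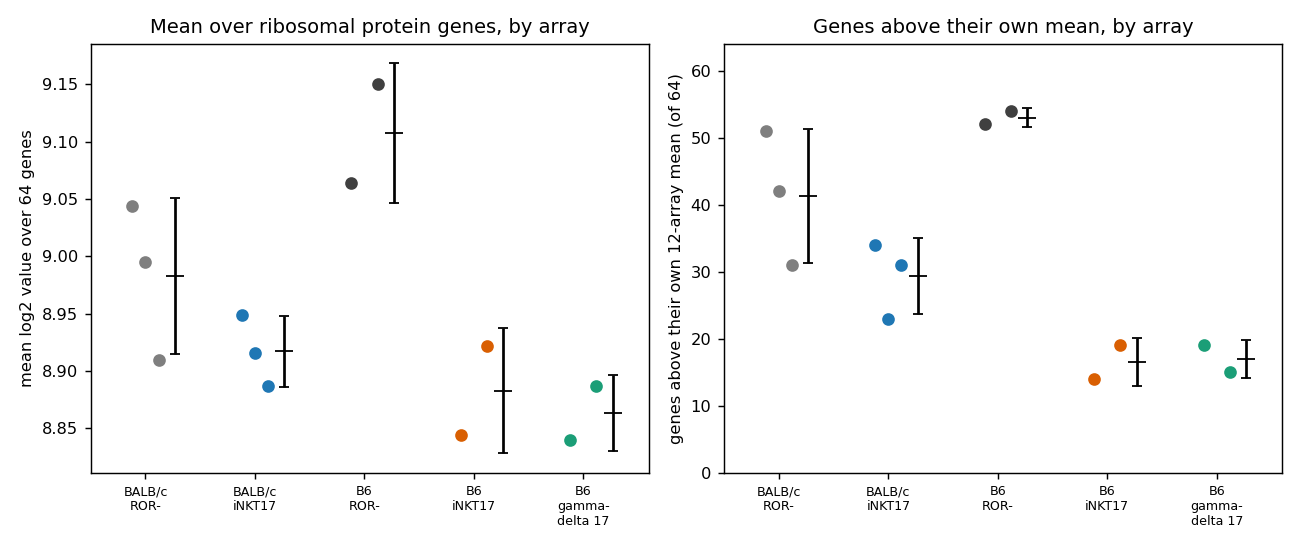
Left, the mean log2 value over 64 ribosomal protein genes on each of 12 arrays, by group; right, the number of those genes above their own 12-array mean. Points are arrays and bars are group mean and SD; the B6 ROR- arrays at 9.06 and 9.15 lie above the 4 B6 type 17 arrays at 8.84 to 8.92.

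Between iNKT17 and ROR- cells, averaged over both strains, 2 of 64 ribosomal protein genes changed, and both fell: Rps19 and Rps14, small-subunit proteins whose loss in humans underlies Diamond-Blackfan anaemia and the anaemia of the 5q syndrome. That is fewer than the background of the comparison, in which 12.3% of 16667 genes passed the same threshold (limma, Benjamini-Hochberg adjusted p below 0.05). The direction was nevertheless shared by most: 57 of 64 differences were negative (89.1%) against 50.8% of all genes, with a median of -0.13 against -0.004. At an unadjusted p below 0.05 there were 15 genes. All 38 genes with readings above 8 were negative, with a median of -0.13, while 90 other genes read above 11 had a median of 0.01. These cuts differ, and the median difference of the 1997 other genes above 8 was not computed. The differences were small, from -0.71 in Rps27 to 0.21 in Rps27l.

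Rps19 read 11.40, 11.43 and 11.39 in BALB/c ROR- cells and 10.98, 10.88 and 11.005 in BALB/c iNKT17 cells. In B6 it read 11.31 and 11.30 in ROR- cells, 11.07 and 11.01 in iNKT17 cells, and 10.94 and 10.96 in gamma-delta 17 cells. All 5 ROR- arrays lay above all 7 type 17 arrays. Rps19 fell by 0.36 ± 0.07 (SE) on the log2 scale, with an adjusted p of 0.00674 in limma, and the call held without any single array, with adjusted p up to 0.0365. Another Rps19 probe set, much dimmer, differed by -0.27 (adjusted p = 0.203 in limma over probe sets).

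Rps14, on the platform of the small subunit, read 5.83, 6.20 and 5.66 in BALB/c ROR- cells and 5.66, 5.57 and 5.44 in iNKT17 cells. The B6 values were 6.03 and 6.35 in ROR- cells and 5.38 and 5.85 in iNKT17 cells. The ROR- and iNKT17 arrays of each strain did not overlap, though in BALB/c the lowest ROR- and the highest iNKT17 array both read 5.66. Rps14 fell by 0.45 ± 0.13 (adjusted p = 0.0439 in limma). Without BALB/c ROR- replicate 3 or B6 iNKT17 replicate 2 the call held (adjusted p = 0.0264 and 0.027), and without any other single array it was lost, with adjusted p up to 0.182. It was also lost with each array centred on its median (-0.41, adjusted p = 0.0971) and without the dim filter (adjusted p = 0.0502).

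Genes in which every iNKT17 array read below every ROR- array of its own strain, in both strains, numbered 8 of 64, against 6.42% of all genes tested. They were Rps3, Rps6, Rps14, Rps19, Rps20 and Rps25 of the small subunit, and Rpl13 and Rplp1 of the large one. Rps6 read 12.17, 12.15 and 12.21 in BALB/c ROR- cells and 12.12, 11.99 and 12.003 in iNKT17 cells. Its B6 values were 12.13 and 12.16 against 11.96 and 11.95. The difference of -0.16 ± 0.08 did not pass the test (adjusted p = 0.215). Rps3, which lies at the entry of the messenger RNA channel, differed by -0.23 ± 0.08 (adjusted p = 0.103), and Rps20, of the small-subunit head, by -0.28 ± 0.09 (adjusted p = 0.0683).

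By place in the ribosome, the 24 small-subunit genes had a median of -0.17 and the 40 tested large-subunit genes of -0.10. Of 11 genes of the small-subunit head 10 were negative, with 1 call (Rps19). The stalk proteins Rplp0, Rplp1 and Rplp2 recruit elongation factors. Rplp2, which read 4.95, 4.79 and 4.72 in BALB/c ROR- and 4.74, 4.43 and 4.35 in BALB/c iNKT17 cells, differed by -0.31 ± 0.11 (adjusted p = 0.0948), and Rplp1 by -0.14 ± 0.08 (adjusted p = 0.2997). Rplp0 differed by -0.51 ± 0.31 (adjusted p = 0.368), with a wide spread between replicates. Rpl5 and Rpl11, which bind Mdm2 when assembly stalls, differed by -0.13 ± 0.16 and -0.12 ± 0.13. Rpsa, known also as the laminin receptor, differed by -0.26 ± 0.15 (adjusted p = 0.338). Rpl22 read 7.25, 7.18 and 7.24 in BALB/c ROR- and 7.19, 7.13 and 7.19 in BALB/c iNKT17 cells, and differed by -0.17 ± 0.07 over both strains (adjusted p = 0.182).

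Of the 6 tested paralogs none passed the test, and 3 had positive and 3 negative differences. They pair as Rps27l (0.21) with Rps27 (-0.71), Rps4l (0.18) with Rps4x (-0.17), Rpl7l1 (0.12) with Rpl7 (-0.02), Rpl22l1 (-0.26) with Rpl22 (-0.17), Rpl39l (-0.11) with Rpl39 (0.14) and Rpl3l (-0.08) with Rpl3 (-0.53). The adjusted p of Rps27 was 0.0814, and it passed without BALB/c iNKT17 replicate 1 (-0.84, adjusted p = 0.0336). Differences within a pair were not tested.

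BALB/c ROR- replicate 3 stood apart from its group in several of these genes. Its Rplp0 read 7.88 where replicates 1 and 2 read 9.77 and 9.37. A second, dimmer Rplp0 probe set did not share this, at 5.89, 6.24 and 6.39 on replicates 1 to 3. Replicate 3 read 9.53 against 10.36 and 10.47 for Rpl3, a core protein of the peptidyl transferase centre, and 10.13 against 10.89 and 10.62 for Rpsa. A second Rpl3 probe set shared this, at 8.73 against 10.38 and 10.04. The third and dimmest Rpl3 probe set did not, at 4.87 against 4.41 and 4.24. Without BALB/c ROR- replicate 3, 6 of 64 ribosomal protein genes fell in the comparison over both strains: Rps19, Rps14, Rpl10a (-0.32), Rpl3 (-0.68), Rpl8 (-0.32) and Rplp0 (-0.79). Of all genes 2045 passed in that fit, against 2051 (12.3%) with all arrays, so the 6 remained below the background. Why this array stood apart is not known. The cause was not tested.

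In BALB/c alone 1 gene fell, Rps19 by 0.45 ± 0.09 (adjusted p = 0.0114 in limma), against a background of 6.97%. Leaving out the second BALB/c iNKT17 array ended the call (adjusted p = 0.0527). Negative differences numbered 40 of 64 with a median of -0.06, and 35 with a median of -0.02 when each array was centred on its own median. In 9 genes (background 10.1%) all iNKT17 arrays read below all ROR- arrays, the 8 above and Rps23.

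In B6 alone no gene passed (background 5.99%), although 10 did at an unadjusted p below 0.05. Here 56 of 64 differences were negative, all 38 genes with readings above 8 among them, with a median of -0.20. Both iNKT17 arrays read below both ROR- arrays in 50 of 64 genes, against 23.9% of all genes tested. The most negative differences were those of Rplp0 (-1.07 ± 0.48, adjusted p = 0.299) and Rps27 (-1.05 ± 0.37, adjusted p = 0.157). On the dimmer Rplp0 probe set the groups overlapped, at 5.96 and 6.11 in ROR- and 5.52 and 6.19 in iNKT17 cells. Rpl10a, a large-subunit protein of the flexible L1 stalk, read 11.16 and 11.15 in ROR- cells and 10.57 and 10.76 in iNKT17 cells, a difference of -0.49 ± 0.14 (adjusted p = 0.0626). Without BALB/c ROR- replicate 3, Rpl10a and Rplp0 passed (adjusted p = 0.0367 and 0.0393), and without BALB/c ROR- replicate 2, Rps27 did (adjusted p = 0.0481).

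The difference between the strains in the iNKT17 minus ROR- difference was itself tested. No ribosomal protein gene passed, against a background of 0.084%, and 1 gene, Rpl10a, had an unadjusted p below 0.05 (0.41 ± 0.18, adjusted p = 0.999 in limma). The difference was positive in 50 of 64 genes, that is, less negative in BALB/c, with a median of 0.11 against 0.02 over all genes.

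**Figure D2:**
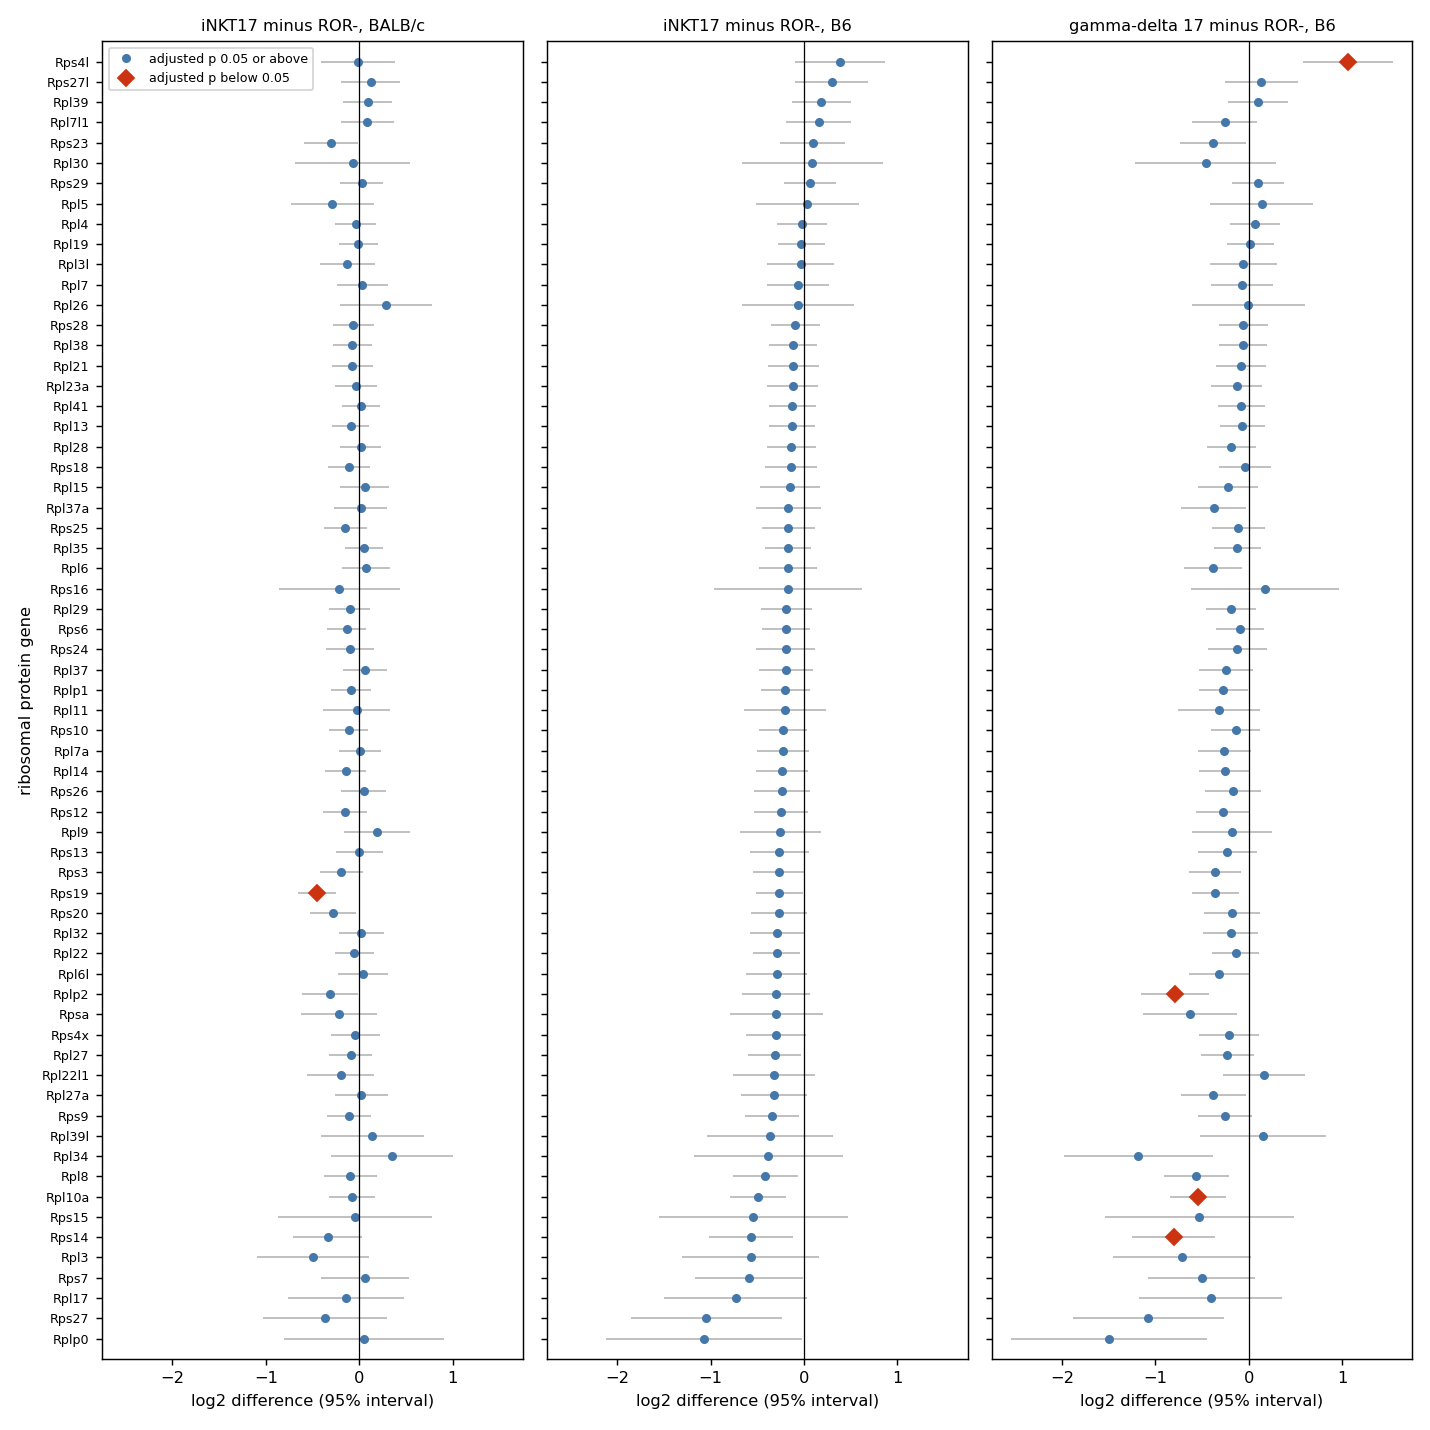
Log2 differences of 64 ribosomal protein genes with 95% intervals from limma: iNKT17 minus ROR- in BALB/c, the same in B6, and gamma-delta 17 minus ROR- in B6, ordered by the B6 iNKT17 difference. Diamonds mark adjusted p below 0.05: Rps19 in BALB/c, none in B6 iNKT17 cells, and Rps4l, Rplp2, Rps14 and Rpl10a in gamma-delta 17 cells.

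Between gamma-delta 17 and ROR- cells of B6 mice 4 ribosomal protein genes changed. Rplp2, Rps14 and Rpl10a fell and Rps4l rose, against a background of 6.02% of genes in either direction. Differences were negative in 54 of 64 genes (48.5% of all genes), with a median of -0.20, and 16 genes had an unadjusted p below 0.05. In 48 of 64 genes both gamma-delta 17 arrays read below both ROR- arrays, against 24.7% of all genes. This comparison uses the same ROR- arrays as that of B6 iNKT17 cells, so that their likeness is no second observation.

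Rplp2 read 4.70 and 4.82 in B6 ROR- cells, 4.29 and 4.63 in B6 iNKT17 cells, and 3.97 and 3.98 in gamma-delta 17 cells. The gamma-delta 17 arrays were the lowest of the 12, close to the dim level of 3.45. Against ROR- cells Rplp2 fell by 0.78 ± 0.17 (adjusted p = 0.0154 in limma). The call was lost without either gamma-delta 17 array or either B6 ROR- array, with adjusted p up to 0.117 and differences of -0.85 to -0.72. Rps14 read 5.39 and 5.37 in gamma-delta 17 cells and fell by 0.80 ± 0.20 (adjusted p = 0.0399). Rpl10a read 10.62 and 10.61 and fell by 0.54 ± 0.14 (adjusted p = 0.0398). Both calls held without BALB/c ROR- replicate 3 or either B6 iNKT17 array, that of Rps14 also without BALB/c ROR- replicate 2 and that of Rpl10a without BALB/c ROR- replicate 1. Without any other single array they were lost, with adjusted p up to 0.266 for Rps14 and 0.171 for Rpl10a. The Rpl10a call was also lost with centred arrays (-0.59, adjusted p = 0.0502) and with the replicate number as a block (adjusted p = 0.0664).

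Rps4l, the transcribed pseudogene related to the X-linked Rps4x, read 6.10 and 6.49 in gamma-delta 17 cells, above every other array. It read 5.07 and 5.40 in B6 ROR-, 5.70 and 5.54 in B6 iNKT17, 4.79 to 5.46 in BALB/c ROR- and 4.90 to 5.20 in BALB/c iNKT17 cells. The rise against ROR- cells was 1.06 ± 0.22 (adjusted p = 0.0135 in limma), and it did not pass without gamma-delta 17 replicate 2 (0.87) or B6 ROR- replicate 1 (0.90), with adjusted p up to 0.128. Rps4x differed by -0.21 ± 0.15 (adjusted p = 0.516). Of the other named genes, Rplp0 differed by -1.50 ± 0.48 (adjusted p = 0.102), with gamma-delta 17 values of 7.98 and 8.83, Rpsa by -0.63 ± 0.23 (adjusted p = 0.155), Rps19 by -0.36 ± 0.11 (adjusted p = 0.101) and Rps6 by -0.09 ± 0.12. The dimmer Rplp0 probe set differed less, at 5.79 and 5.71 in gamma-delta 17 and 5.96 and 6.11 in ROR- cells. Rpl5 differed by 0.14 ± 0.25 and Rpl11 by -0.32 ± 0.20. Without BALB/c ROR- replicate 3, which enters only through the shared spread, Rplp0, Rpl34 and Rpl8 also passed, 7 genes in all. Without gamma-delta 17 replicate 1, the array with myeloid and Cd8a signal, Rps4l alone passed (1.26, adjusted p = 0.0208).

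**Figure D3:**
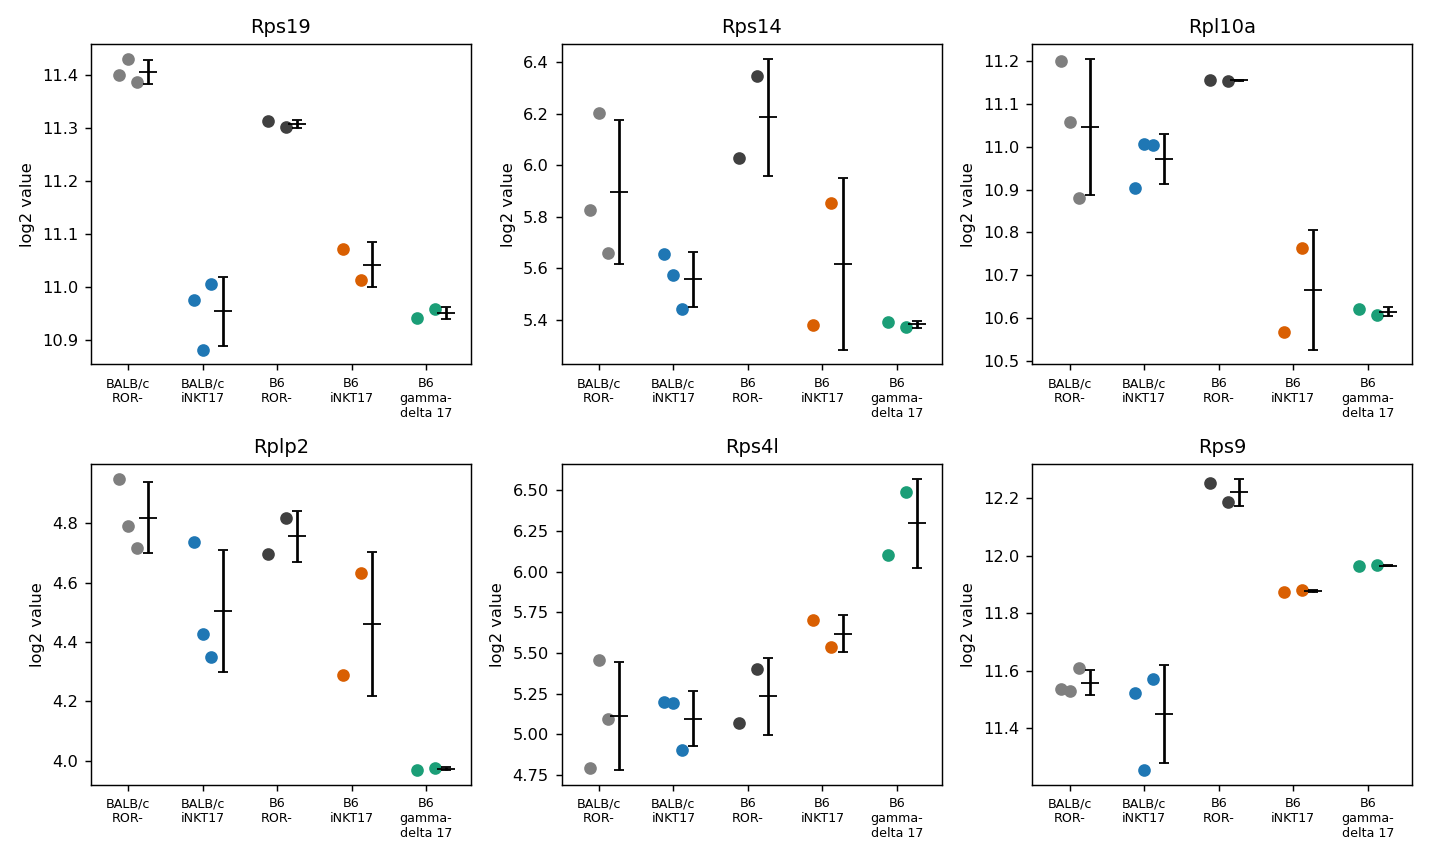
Log2 values on each of 12 arrays for the 6 ribosomal protein genes that passed the test in any comparison; points are arrays, bars are group mean and SD, and the vertical scales differ between genes. Rps19 separates all ROR- arrays (11.30 to 11.43) from all type 17 arrays (10.88 to 11.07), Rps4l is highest in gamma-delta 17 cells, and Rps9 separates the strains.

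The 2 kinds of B6 type 17 cells could be compared directly. No ribosomal protein gene passed (background 0.168%), 5 had an unadjusted p below 0.05, and the median difference was -0.01, with 33 of 64 negative (10 of 64 when each array was centred on its median). The intervals leave room for differences of some size. For Rps19 the difference of iNKT17 minus gamma-delta 17 was 0.09, with a 95% interval from -0.16 to 0.34, and for Rps6 -0.10, from -0.35 to 0.16. Rps4l differed by -0.68 ± 0.22 (adjusted p = 0.409), Rplp2 by 0.49 ± 0.17 (adjusted p = 0.441), Rps23 by 0.47 ± 0.16 (adjusted p = 0.439), Rpl22l1 by -0.48 ± 0.20 (adjusted p = 0.550) and Rpl7l1 by 0.42 ± 0.16 (adjusted p = 0.510).

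Between strains, 1 gene differed in ROR- cells: Rps9, a small-subunit protein that helps set decoding accuracy, was lower in BALB/c (background 1.22%). It read 11.54, 11.53 and 11.61 in BALB/c ROR- cells against 12.25 and 12.19 in B6 ROR- cells, a difference of -0.66 ± 0.12 (adjusted p = 0.0230 in limma). Across cell types all 6 BALB/c arrays, at 11.26 to 11.61, lay below all 6 B6 arrays, at 11.87 to 12.25. In iNKT17 cells the difference was -0.43 ± 0.12 (adjusted p = 0.136), and no ribosomal protein gene passed there (background 1.48%, 8 genes at an unadjusted p below 0.05). A second Rps9 probe set, nearly as bright, differed by -0.18 in ROR- and 0.11 in iNKT17 cells, and neither passed. The Rps9 call ended when the second BALB/c ROR- array or either B6 ROR- array was left out (adjusted p up to 0.188), and also when both Rps9 probe sets were averaged (-0.42, adjusted p = 0.117).

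Rps7 of the small subunit, named after its values were seen, read 6.28, 5.93 and 6.05 in BALB/c ROR- cells and 6.95 and 7.29 in B6 ROR- cells. Its difference of -1.03 ± 0.24 did not pass (adjusted p = 0.0698), though it did without BALB/c iNKT17 replicate 3 (adjusted p = 0.0257). Rps27l, a p53 target gene in mouse and human cells, read 6.99, 7.38 and 7.08 in BALB/c iNKT17 cells and 7.75 and 7.81 in B6 iNKT17 cells, a difference of -0.63 ± 0.16 (adjusted p = 0.100). It passed without BALB/c iNKT17 replicate 2 (-0.75, adjusted p = 0.0392). The median strain difference of the 64 genes was 0.05 in iNKT17 and -0.06 in ROR- cells. The 29 cell cycle genes had a median strain difference of -1.88 in iNKT17 cells, all negative and none past the test.

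The widest strain difference among these probe sets came from Rpl29, a large-subunit protein, and lay in the dimmer of its 2 probe sets, which was singled out after its values were seen. It read 5.67 to 6.16 on the 6 BALB/c arrays, 7.76 to 8.15 on the B6 ROR- and iNKT17 arrays, and 7.16 and 7.09 on the gamma-delta 17 arrays. With every named probe set tested on its own, BALB/c minus B6 was -2.16 ± 0.17 in ROR- cells (adjusted p = 6.48e-05 in limma, background 1.22% of probe sets) and -1.94 ± 0.17 in iNKT17 cells (adjusted p = 1.37e-04, background 1.47%). Both held without any single array, with adjusted p up to 0.00206 and 0.003. The brighter Rpl29 probe set, which stands for the gene elsewhere, differed by 0.10 and 0.18. With both averaged, the gene differed by -1.03 in ROR- and -0.88 in iNKT17 cells (adjusted p = 0.00209 and 0.00585), the opposite sign. Which copy or stretch of the gene the dimmer probe set reads was not tested. In gamma-delta 17 cells the dimmer probe set differed from B6 ROR- cells by -0.90 ± 0.18 (adjusted p = 0.0134, background 5.91%). That call was lost without either gamma-delta 17 array or either B6 ROR- array (adjusted p up to 0.0915). A dimmer Rpl27 probe set differed by -0.84 ± 0.15 in the same comparison (adjusted p = 0.00545), at 4.77 and 5.18 in gamma-delta 17 cells against 5.72 and 5.92 in ROR- cells. The brighter Rpl27 probe set, which stands for the gene elsewhere, differed by -0.23 there and did not pass. With both averaged, Rpl27 differed by -0.54 (adjusted p = 0.0199 in limma). For the dimmer Rpl27 probe set, also chosen after its values were seen, the effect of leaving out single arrays was not computed.

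**Figure D4:**
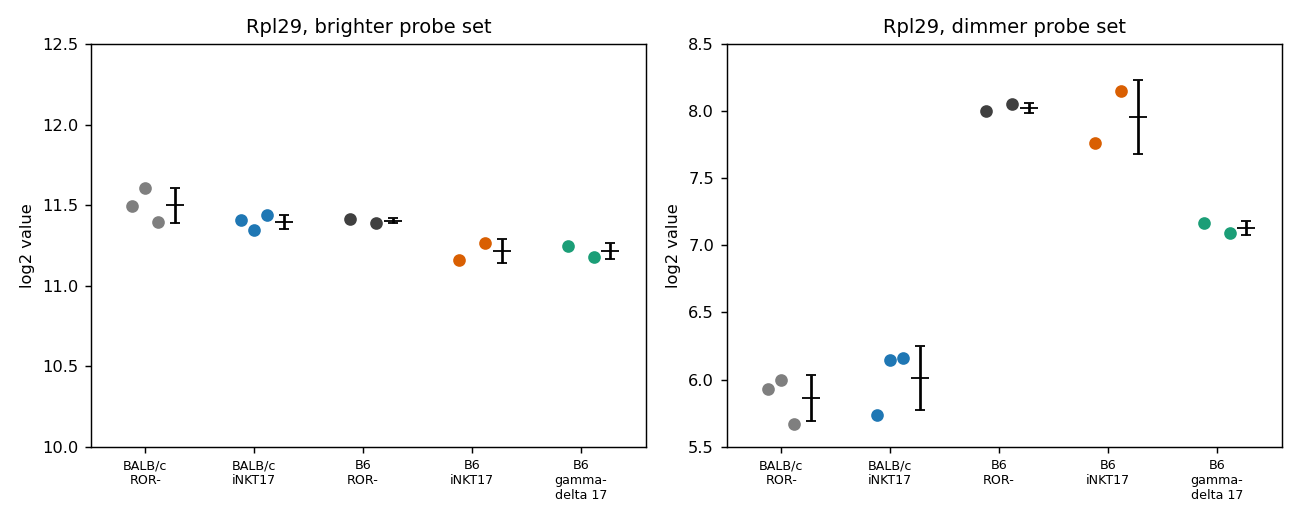
Log2 values of the brighter (left) and the dimmer (right) Rpl29 probe set on each of 12 arrays, by group; points are arrays and bars are group mean and SD. The dimmer probe set reads 5.67 to 6.16 in BALB/c and 7.09 to 8.15 in B6, while the brighter one shows no such split.

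Genes that act with the ribosomal proteins were counted from lists set beside them. A list of translation genes and others grouped with TOP transcripts (elongation and initiation factors, Pabpc1, Npm1 and others) had 22 tested genes. It also held Fau, Nap1l1 and Snhg1, and the motif was not looked for in the listed genes. None of the 22 passed in the comparison over both strains (background 12.3%), 5 had an unadjusted p below 0.05, and 19 were negative with a median of -0.13. In B6 all 22 were negative, with a median of -0.20, and in BALB/c 16 were. In gamma-delta 17 cells 20 of 22 were negative and 1 passed (background 6.02%): Eif4a2, a helicase of translation initiation, read 7.95 and 9.59 against 10.50 and 10.42 in B6 ROR- cells (-1.69 ± 0.38, adjusted p = 0.0214). Without gamma-delta 17 replicate 1 the difference was -0.87 (adjusted p = 0.0495), and without either B6 ROR- array the call was lost (adjusted p up to 0.122). Of 46 tested ribosome assembly genes, 3 fell over both strains and none rose (background 12.3%). Polr1b fell by 0.67 ± 0.17 and Polr1a by 0.58 ± 0.15, both subunits of RNA polymerase I, and Wdr43, a factor of small-subunit assembly, by 0.48 ± 0.13 (adjusted p = 0.0249, 0.0256 and 0.0341). Polr1a and Polr1b lost their calls without either B6 ROR- array, B6 iNKT17 replicate 1 or BALB/c iNKT17 replicate 3, and Wdr43 without these or BALB/c ROR- replicates 1 or 3 or BALB/c iNKT17 replicate 1 (adjusted p up to 0.149). Negative differences numbered 37 of 46, and in gamma-delta 17 cells 46 of 46 with a median of -0.32 and none past the test. Array means of these genes spread widely within groups, for example 7.17 and 7.66 on the B6 iNKT17 arrays.

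**Figure D5:**
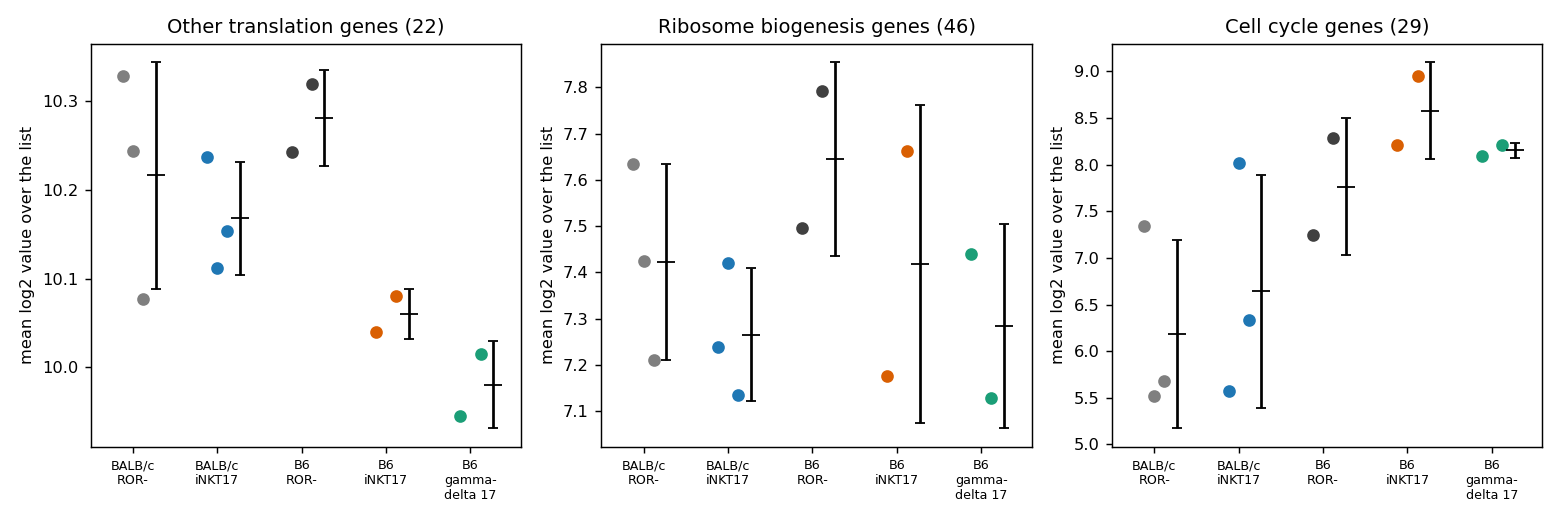
Mean log2 value over the list of 22 translation and TOP genes, 46 ribosome assembly genes and 29 cell cycle genes on each of 12 arrays, by group. Points are arrays and bars are group mean and SD. The translation genes follow the order of the ribosomal protein genes (10.04 and 10.08 in B6 iNKT17 against 10.24 and 10.32 in B6 ROR- cells), while the cell cycle genes spread from 5.52 to 8.95.

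From a list of MYC and its partners, Myc, Mycn and Mxi1 passed over both strains (background 12.3%). In gamma-delta 17 cells these and Mxd4 passed (background 6.02%). Mycl, Max, Mxd1, Mxd3, Mnt and Mga, also tested, passed in neither comparison. Myc fell in all type 17 cells, and its part in the readings of ribosomal protein genes was not tested. It read 10.45, 10.01 and 10.25 in BALB/c ROR- cells and 8.48, 8.64 and 8.18 in BALB/c iNKT17 cells. In B6 it read 10 and 9.93 in ROR- cells, 7.79 and 8.44 in iNKT17 cells, and 8.30 and 7.80 in gamma-delta 17 cells. Over both strains Myc fell by 1.83 ± 0.16 (adjusted p = 1.08e-05), with no overlap between ROR- and type 17 arrays. In gamma-delta 17 cells Myc fell by 1.92 ± 0.24 (adjusted p = 5.37e-04), and both calls held without any single array. Mycn, its relative, rose by 1.29 ± 0.14 over both strains (adjusted p = 8.77e-05) and by 1.34 ± 0.22 in gamma-delta 17 cells, from readings near the dim level (3.57 to 3.96 in ROR- cells). Mxi1, a repressor that shares the partner Max, fell by 0.70 ± 0.16 over both strains and by 1.01 ± 0.25 in gamma-delta 17 cells, where Mxd4 fell by 0.92 ± 0.23. Without gamma-delta 17 replicate 1 neither gamma-delta 17 call held, nor without either B6 ROR- array or BALB/c iNKT17 replicate 1 (adjusted p up to 0.272), and Mxi1 also lost it without BALB/c iNKT17 replicate 3. Over both strains Mxi1 lost its call without B6 ROR- replicate 1 or B6 iNKT17 replicate 2 (adjusted p up to 0.0736).

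Of 18 tested genes on a list of the mTOR pathway, La-related proteins and translation control, 1 rose over both strains and none fell, against a background of 12.3%. Whether each listed gene acts on TOP messenger RNAs was not tested. Larp4b, an RNA-binding protein of the La-related family, read 7.80, 7.96 and 7.69 in BALB/c ROR- and 8.57, 8.43 and 8.65 in BALB/c iNKT17 cells. Its B6 values were 7.74 and 7.98 in ROR-, 8.60 and 8.57 in iNKT17 and 8.55 and 8.49 in gamma-delta 17 cells, so that no type 17 array overlapped the ROR- arrays. The rise was 0.73 ± 0.09 over both strains (adjusted p = 2.18e-04) and 0.66 ± 0.14 in gamma-delta 17 cells (adjusted p = 0.0172). The first held without any single array, and the second was lost without either gamma-delta 17 array or B6 ROR- replicate 1 (adjusted p up to 0.156). Eif4ebp1, an inhibitor of cap-dependent translation that mTOR switches off, rose in BALB/c iNKT17 cells (0.63 ± 0.16, adjusted p = 0.0327). The call was lost without any of the 3 BALB/c iNKT17 arrays or the third BALB/c ROR- array (adjusted p up to 0.0942), and the difference between the strains did not pass (adjusted p = 0.999). Larp1 differed by -0.12 ± 0.09 and Mtor by 0.09 ± 0.09, and neither passed. None of 11 tested genes for chaperones and assembly surveillance, such as Mdm2 and Grwd1, passed over both strains (1 at an unadjusted p below 0.05), with a median of 0.01.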

How the data were processed

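The authors deposited 1 table of processed log2 values for 41345 probe sets on 12 arrays. They used oligo, per the submitters' processing notes. Its version, how probes were summarised and normalized, and the log base (taken as 2) were not given in the sources used here. Array number limits the precision. Probe sets with 1 symbol were named from the platform annotation (1814 had several symbols and 16010 none), with 23328 IDs matched to RefSeq (GRCm38.p6). The brightest probe set per gene was kept, and 16667 genes were tested. Group means were fitted to all 12 arrays with limma 3.58.1 in R 4.3.3 (lmFit, eBayes, 7 residual and 4.50 prior degrees of freedom), with Benjamini-Hochberg adjustment over all genes, checked on simulated data. Named genes were those past the threshold, stalk, assembly and paralog genes, and the brightest and dimmest 5; further genes were named after their values were seen. The members, companion lists and rules were chosen with earlier results of these data known. Whether replicate numbers pair arrays is not known. Deviations of same-numbered arrays correlated at 0.02 on average over 21 pairs (others -0.01 over 36), ranging from -0.46 to 0.465. In a group of 2 arrays the deviations mirror each other, which draws such averages to zero, so that they cannot exclude pairing. Alternatives were array centring, repeated quantile normalization, no or stricter dim filter, probe-set means, eBayes with trend, array weights, a replicate block, single arrays left out and, added after seeing the data, single probe sets. Promoters were searched in Python.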

Additional observations from a re-analysis of the deposited data

How the results depend on the processing

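No gene called in the fit as reported changed sign, but Rpl29, not called there at 0.18 in iNKT17 and 0.10 in ROR- cells between strains, was called at -0.88 and -1.03 with probe-set means. Members past the test over both strains (2) became 1 (Rps14 lost) with centred arrays or without the dim filter, 4 with repeated quantile normalization or with trend and robust eBayes, 5 with array weights, and 1 to 6 without single arrays. In B6 (0) they became 1 with quantile normalization, trend or weights and 0 to 2 without single arrays, in BALB/c (1) 0 to 1, and in ROR- cells between strains (1) 0 to 2, with Rpl29 in place of Rps9 under probe-set means. In iNKT17 cells between strains (0) they became 1 with probe-set means or weights and 0 to 1 without single arrays, and for gamma-delta 17 (4) 3 with centred arrays (Rpl10a lost), 7 with weights and 0 to 7 without single arrays. Medians moved with centring to -0.0853 over both strains, -0.0169 in BALB/c (without single arrays -0.0734 to -0.0232), -0.16 in B6, 0.084 for iNKT17 minus gamma-delta 17 and -0.25 for gamma-delta 17 minus ROR-. With quantile normalization they moved to 0.0686 for the strain difference of differences, -0.000326 for strains in ROR- cells, -0.0496 for iNKT17 minus gamma-delta 17 and -0.13 for gamma-delta 17 minus ROR-. With probe-set means they moved to 0.15 for the difference of differences (0.10 to 0.15 without single arrays), 0.0875 for strains in iNKT17 cells (0.0526 to 0.0878) and -0.25 for gamma-delta 17 minus ROR-. With the replicate block the strain median in iNKT17 cells was 0.10. There Rpl34 took the place of Rpl10a among the 4 gamma-delta 17 calls. Whether the numbers pair the arrays is not known. The block lowered all genes called for the difference of differences from 14 to 6, and weights raised those for strains in iNKT17 cells from 247 to 549. Without single arrays these counts ran from 0 to 15 and from 77 to 531, and elsewhere from 1336 to 2051 over both strains, 742 to 1151 in BALB/c, 486 to 1065 in B6, 62 to 259 in ROR- cells between strains, 5 to 58 for iNKT17 minus gamma-delta 17 and 524 to 1151 for gamma-delta 17 minus ROR-. The causes were not tested. With 2 or 3 arrays a group, differences near the medians given here cannot be called for single genes, and a lone remaining array is assumed to vary like the other groups.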
